A study of Mus musculus with 8 samples.

Results

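The 10 genes described here are normally transcribed in germ cells or, for Nxf3, in the testis. These were followed across 8 mouse tumors of the kind called malignant peripheral nerve sheath tumor (MPNST), a sarcoma that arises from Schwann lineage cells. They are Piwil2, Piwil4, Mael, Ddx4, Dazl, Hormad1, Sycp3, Slc25a31, Tex101 and Nxf3, taken by symbol from a table of 20943 genes, in which all 10 were present. They were selected on their log2 values in these same tumors, in the contrast of PRC2 loss with PRC2 wildtype, so their differences between groups are given as description, with no test. The tumors fall into 3 PRC2 loss tumors, from Plp-CreERT mice with floxed Nf1, Cdkn2a and Eed, and 5 PRC2 wildtype tumors, from Plp-CreERT mice with floxed Nf1 and Cdkn2a only. Plp-CreERT is a tamoxifen-inducible recombinase of the Schwann lineage, pups of both groups were given tamoxifen (0.4 mg) in the first days of life, day 0 to day 3, and the labels give every recombined allele as null. By the labels, the recombined cells of all tumors therefore lacked the Ras inhibitor Nf1 and the cell cycle inhibitors of Cdkn2a. The groups differ in Eed, one of the core proteins of PRC2 (Polycomb repressive complex 2), which methylates histone H3 at lysine 27. The series asks what PRC2 does as a tumor suppressor in MPNST. The ages of the mice at collection are not in the labels used here.

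Germline genes are switched on in primordial germ cells, spermatogonia, meiotic cells or oocytes and are held silent in nearly all somatic cells. In the mouse that silence is known to rest mainly on promoter DNA methylation, on histone H3 lysine 9 methylation and on PRC1.6, a variant Polycomb complex that reaches E-box and E2F sites through MGA, MAX and E2F6, while PRC2 is known to hold many developmental regulators silent. Tumors can re-express such genes, which are then called cancer-testis genes.

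The values are the authors' quantile-normalized log2 gene counts, in which every tumor has nearly the same distribution, so sequencing depth is unknown. Eed itself averaged 8.89 ± 0.11 in the 3 PRC2 loss tumors, against 10.25 ± 0.08 in the 5 wildtype tumors (SD). Of 12 Schwann cell and myelin markers 10 passed the test as higher in PRC2 loss, with a list mean of up to 13.6 in PRC2 loss tumors, and of 7.35 to 10.6 in wildtype tumors, which stayed below every PRC2 loss tumor. Macrophage markers ran the other way, with 7 of 10 lower and 1 higher, and a list mean between 10.83 and 11.40 in PRC2 loss and between 11.65 and 12.50 in wildtype. The list mean of 8 skeletal muscle genes lay between 4.13 and 9.55 in PRC2 loss and between 4.40 and 12.89 in wildtype. The part of these cell types in the germline gene values was not tested, and in bulk RNA fewer cells of a type and less RNA per cell cannot be told apart. PRC2 loss tumors 2 and 3 share an animal number, as do wildtype tumors 1 and 2 and wildtype tumors 3 and 4. If a shared number is a shared mouse, p-values are too small. For PRC2 loss tumors 2 and 3 the labels join the left and right sciatic nerve to the same number, which reads as a single mouse. The n = 3 of PRC2 loss therefore counts tumors, not mice. With tumors of 1 animal number averaged, 4226 genes were called, against 7424. Y-linked transcripts placed PRC2 loss tumor 1 and wildtype tumor 5 in male mice. Each PRC2 loss tumor is labelled with a nerve (right paraspinal for tumor 1, left and right sciatic for tumors 2 and 3), and the wildtype labels name none.

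Promoter sequences from RefSeq (build GRCm38.p6, the assembly of mm10) were found for 8 of the 10 genes; Piwil2 and Nxf3 had no entry. They were searched for the E-box, CACGTG, a site through which PRC1.6 is known to reach germline genes. E2F sites were not searched. The sequences of Ddx4, Dazl and Tex101 are not printed. The lines give the 250 bases before the start site, 5′ to 3′, with each E-box in capitals.
Hormad1, chr3:95559427-95559676, + strand: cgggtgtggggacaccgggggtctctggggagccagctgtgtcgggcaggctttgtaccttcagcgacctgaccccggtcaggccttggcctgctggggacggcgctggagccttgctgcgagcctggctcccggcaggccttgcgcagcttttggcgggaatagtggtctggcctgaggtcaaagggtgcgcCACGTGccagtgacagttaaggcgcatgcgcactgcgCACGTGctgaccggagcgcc
Sycp3, chr10:88459337-88459586, + strand: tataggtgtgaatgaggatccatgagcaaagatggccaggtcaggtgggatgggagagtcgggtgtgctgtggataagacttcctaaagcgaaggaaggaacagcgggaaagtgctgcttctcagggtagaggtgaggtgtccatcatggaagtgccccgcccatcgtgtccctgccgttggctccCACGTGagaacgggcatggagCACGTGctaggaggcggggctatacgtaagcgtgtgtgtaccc
Slc25a31, chr3:40708621-40708870, + strand: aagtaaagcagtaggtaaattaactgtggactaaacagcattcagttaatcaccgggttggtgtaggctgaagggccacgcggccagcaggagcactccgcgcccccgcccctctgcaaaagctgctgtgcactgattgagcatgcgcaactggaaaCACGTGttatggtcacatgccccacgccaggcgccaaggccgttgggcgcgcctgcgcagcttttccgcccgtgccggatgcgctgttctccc
Mael, chr1:166238745-166238994, - strand: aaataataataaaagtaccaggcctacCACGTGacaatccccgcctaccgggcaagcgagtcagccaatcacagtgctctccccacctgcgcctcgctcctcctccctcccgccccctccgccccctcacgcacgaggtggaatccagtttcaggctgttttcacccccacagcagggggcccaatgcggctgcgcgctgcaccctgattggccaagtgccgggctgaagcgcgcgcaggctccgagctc
Piwil4, chr9:14740673-14740922, - strand: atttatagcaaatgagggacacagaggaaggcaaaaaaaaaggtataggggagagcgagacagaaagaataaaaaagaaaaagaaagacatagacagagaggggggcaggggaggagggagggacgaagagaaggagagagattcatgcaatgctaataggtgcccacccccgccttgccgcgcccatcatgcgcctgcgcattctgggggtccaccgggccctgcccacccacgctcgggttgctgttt

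Each window searched ran from 250 bases before to 50 bases after the start site, and CACGTG reads the same on both strands. Hormad1 held 2 matches, starting 57 and 20 bases before the start site, and Sycp3 held 2, at 64 and 43 bases. Slc25a31 had 1 at 93 bases, Ddx4 had 1 at 29 bases and Mael had 1 at 223 bases. The windows of Piwil4, at either of its listed starts, of Tex101 and of Dazl had none. Thus 5 of 8 windows held an E-box, against 7.24% of 27025 windows taken 1 per gene over the genome. CpG dinucleotides, the bases that carry DNA methylation, numbered 38 in the Ddx4 window, 28 in Dazl, 24 in Hormad1, 24 in Mael, 22 in Slc25a31, 19 in Tex101, 15 in Sycp3 and 11 in the first Piwil4 window, against a median of 7.0 over all windows. Genes tested between the groups had larger medians: 16 for those higher in PRC2 loss, 19 for those lower and 15 for the rest. Tex101, Sycp3 and Piwil4 lay within or below that range. These matches are letters in a window and say nothing of what binds there.

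**Figure D1:**
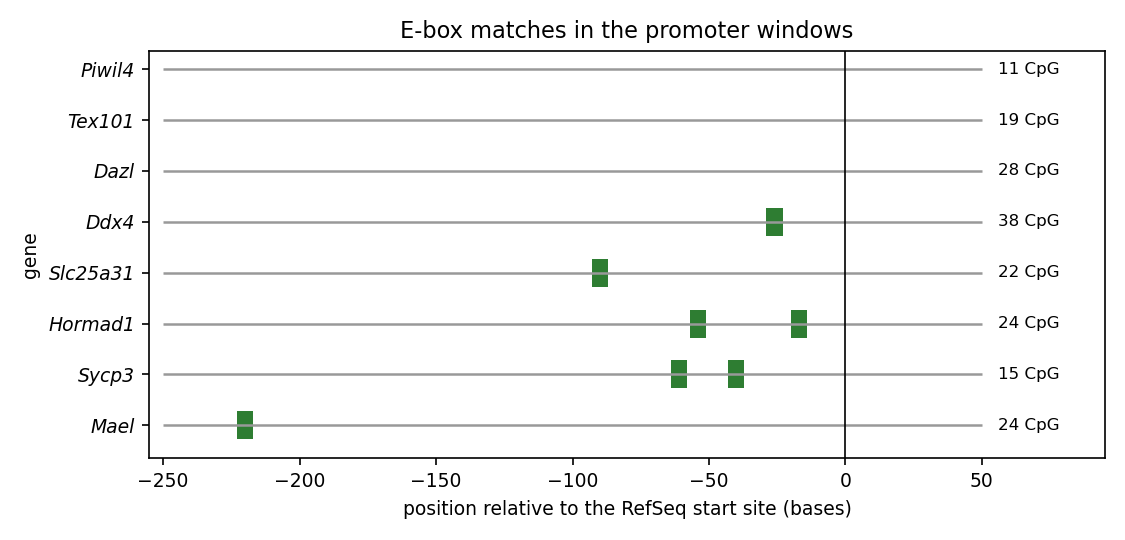
Positions of CACGTG (green bars) in the RefSeq windows of 8 germline genes, in bases from the start site at 0; the number of CpG dinucleotides in each window stands on the right. Ddx4, Slc25a31, Hormad1, Sycp3 and Mael hold at least 1 match, and Piwil4, Tex101 and Dazl hold none.

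The genes split by direction. Piwil2, Piwil4, Tex101 and Nxf3 had all 3 PRC2 loss values above all 5 wildtype values, as did 16.9% of the 20807 genes tested. Ddx4, Dazl and Slc25a31 stood lower in every PRC2 loss tumor, as did 21.4% of all genes, and Hormad1, Sycp3 and Mael overlapped between the groups. Over all genes 35.7% passed the limma test in either direction. Since the choice of the genes used this contrast, nothing is read from these counts. The mean of each of the 10 over all tumors lay below 8.43, which is the median gene's mean.

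**Figure D2:**
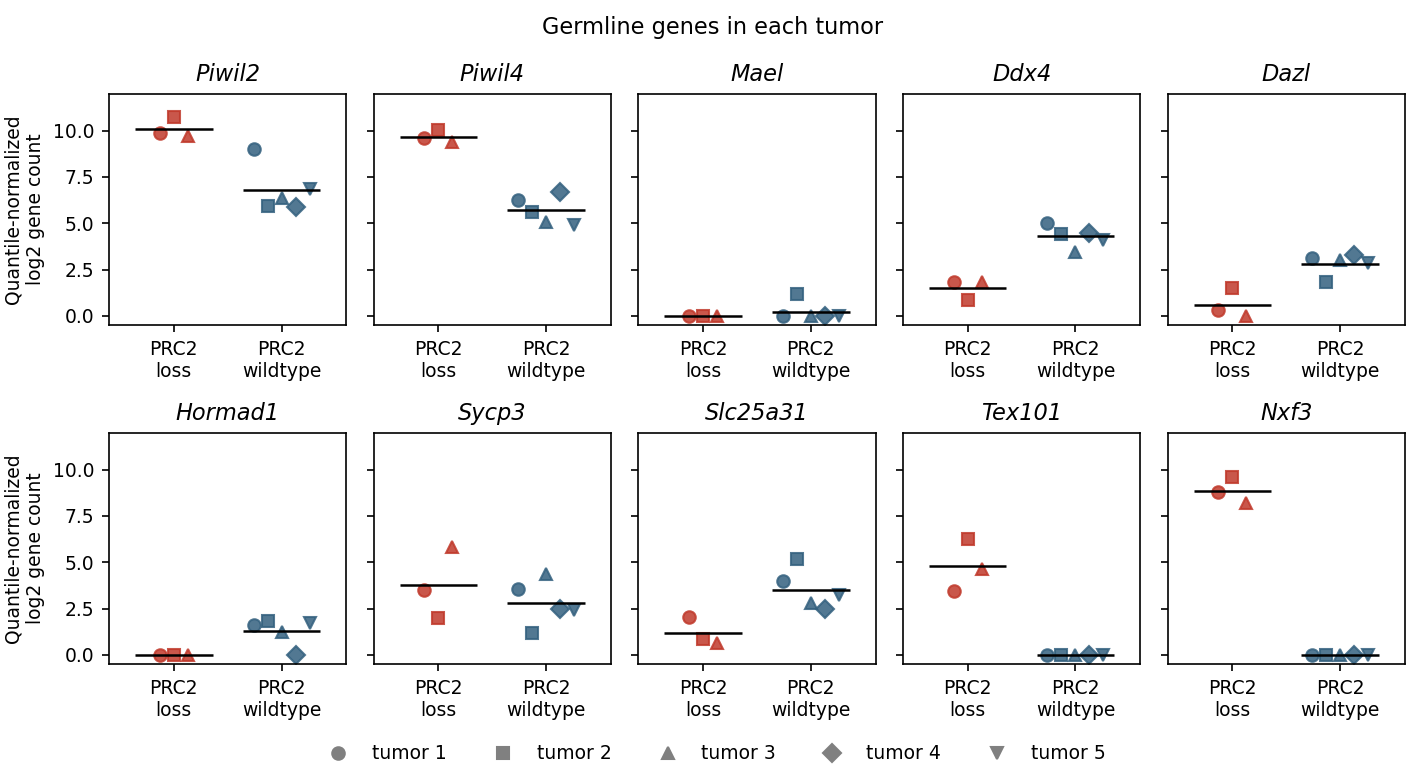
Quantile-normalized log2 gene count (vertical axis) of each germline gene in the 3 PRC2 loss tumors (red) and the 5 PRC2 wildtype tumors (blue); symbols mark tumor numbers and the lines are group means. Nxf3 lies between 8.20 and 9.57 in PRC2 loss and at 0 in all wildtype tumors, whereas Ddx4 lies between 0.87 and 1.85 in PRC2 loss and between 3.46 and 5.00 in wildtype.

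The piRNA pathway, in which PIWI proteins loaded with small RNAs silence transposons, was represented by 4 of the genes. Piwil2 (chromosome 14, 70372477 to 70429383, mm10 in GENCODE M21) encodes the cytoplasmic PIWI protein MILI. It stood at 9.86, 10.74 and 9.71 in PRC2 loss tumors 1 to 3, against 8.98, 5.94, 6.38, 5.86 and 6.85 in wildtype tumors 1 to 5. The groups did not overlap, but wildtype tumor 1 lay closer to the lowest PRC2 loss tumor than to the other 4 wildtype tumors. The means were 10.10 ± 0.56 in PRC2 loss (SD, n = 3) and 6.80 ± 1.28 in PRC2 wildtype (SD, n = 5), a 9.83-fold higher level in PRC2 loss.

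Piwil4 (chromosome 9, 14696230 to 14740733) encodes MIWI2, the nuclear PIWI protein that guides DNA methylation of transposons in fetal male germ cells. It stood at 9.58, 10.02 and 9.41 in PRC2 loss tumors, against 6.28, 5.61, 5.08, 6.70 and 4.92 in wildtype tumors. Every PRC2 loss tumor was above 9.4 and every wildtype tumor below 6.8, so the groups were far apart. The means were 9.67 ± 0.32 in PRC2 loss (SD, n = 3) and 5.72 ± 0.77 in PRC2 wildtype (SD, n = 5), which is 15.5-fold higher in PRC2 loss.

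Ddx4 (chromosome 13, 112598333 to 112652475) encodes the RNA helicase Vasa, a germ granule protein of the same pathway. Its values were 1.85, 0.87 and 1.85 in PRC2 loss tumors, against 5.00, 4.41, 3.46, 4.46 and 4.11 in wildtype tumors. It went the opposite way to the PIWI genes, with means of 1.52 ± 0.57 in PRC2 loss (SD, n = 3) and 4.29 ± 0.56 in PRC2 wildtype (SD, n = 5), or 6.81-fold lower in PRC2 loss. That log2 difference of -2.77 shrank to -0.93 with a pseudocount of 16 added to the unlogged values. Mael (chromosome 1, 166201201 to 166238747), which encodes the piRNA factor Maelstrom, was listed at 0 in all 3 PRC2 loss tumors and in 4 wildtype tumors, with 1.18 in wildtype tumor 2. That single value is the lowest tied level above 0 in its tumor, so Mael was at or next to the floor everywhere.

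Dazl (chromosome 17, 50279395 to 50293636) encodes an RNA-binding protein that commits germ cells to gametogenesis. It stood at 0.33, 1.50 and 0 in PRC2 loss tumors, against 3.11, 1.85, 3.04, 3.28 and 2.85 in wildtype tumors. All 8 values were low, and the highest PRC2 loss value lay just below the lowest wildtype value. The group means were 0.61 ± 0.79 in PRC2 loss (SD, n = 3) and 2.83 ± 0.57 in PRC2 wildtype (SD, n = 5), or 4.64-fold lower in PRC2 loss. The log2 difference was -2.22 as deposited and -0.40 with a pseudocount of 16, and by tied level, described further on, the groups overlapped.

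Hormad1 and Sycp3 encode proteins of the meiotic chromosome axis. Hormad1 (chromosome 3, 95559677 to 95587671) was listed at 0 in all 3 PRC2 loss tumors, against 1.63, 1.85, 1.22, 0 and 1.70 in wildtype tumors, of which wildtype tumor 4 shared the value of 0. Sycp3 (chromosome 10, 88459569 to 88473236) stood at 3.51, 1.96 and 5.80 in PRC2 loss, against 3.55, 1.18, 4.38, 2.45 and 2.41 in wildtype. The highest and the second lowest of the 8 Sycp3 values were PRC2 loss tumors 3 and 2, which share an animal number, and the groups overlapped. Neither axis gene was higher in PRC2 loss beyond the spread of its tumors.

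Of the genes of later male germ cells, Slc25a31 (chromosome 3, 40708855 to 40726096), the ADP/ATP carrier of meiotic and haploid cells, stood at 2.04, 0.87 and 0.65 in PRC2 loss, against 3.96, 5.19, 2.80, 2.45 and 3.24 in wildtype. PRC2 loss tumor 1 came close to wildtype tumor 4, and the means of 1.18 ± 0.75 in PRC2 loss (SD, n = 3) and 3.53 ± 1.09 in PRC2 wildtype (SD, n = 5) correspond to 5.08-fold lower in PRC2 loss. Its log2 difference of -2.34 became -0.66 with a pseudocount of 16, and its groups overlapped by tied level. Tex101 (chromosome 7, 24668007 to 24676675), a germ cell surface glycoprotein needed for sperm to reach the egg, stood at 3.43, 6.25 and 4.65 in PRC2 loss and was listed at 0 in all 5 wildtype tumors. The spread within PRC2 loss was wide, with tumor 2 the highest.

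Nxf3 (chromosome X, 136072099 to 136085255), a testis member of the nuclear mRNA export factor family, stood at 8.81, 9.57 and 8.20 in PRC2 loss and was listed at 0 in all 5 wildtype tumors. It was thus high in the male PRC2 loss tumor 1 as well as in the female tumors 2 and 3, and at 0 in wildtype tumors of both sexes. Its relative Nxf2, also X-linked, did not pass the test, with 4.10 ± 0.24 in the 3 PRC2 loss tumors, against 3.36 ± 0.68 in the 5 wildtype tumors (SD) (limma adjusted p = 0.276). No fold is given for Tex101 or Nxf3, since all wildtype tumors were at 0. With pseudocounts of 1 and 16 the log2 difference of Tex101 was 3.84 and 1.45, against 4.77 as deposited, and that of Nxf3 was 7.86 and 4.83, against 8.86. Piwil2 and Piwil4, which are higher in all tumors, moved little, to 3.09 and 3.57 with a pseudocount of 16, against 3.30 and 3.95. Within PRC2 loss, Piwil2, Piwil4, Tex101 and Nxf3 were all highest in tumor 2, from the left sciatic nerve.

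The low values need a second reading, because the groups differ in their floor. Between 1822 and 2113 genes were listed at 0 in a PRC2 loss tumor and between 2686 and 3372 in a wildtype tumor. Many low genes share an identical value within a tumor, and values shared by at least 50 genes form a ladder of tied levels. The lowest level above 0 was 0.33 in each PRC2 loss tumor but lay between 1.13 and 1.70 in wildtype tumors. On the ladder Dazl was at levels 1, 4 and 0 in PRC2 loss, against 7, 2, 5, 6 and 3 in wildtype, so its groups overlapped. Slc25a31 was at levels 5, 2 and 2 in PRC2 loss, against 14, above the ladder, 4, 3 and 4 in wildtype, and overlapped too. Ddx4 kept its groups apart, at levels 4, 2 and 6 in PRC2 loss, against above the ladder, 16, 7, 15 and 8 in wildtype. Because the levels lie lower in PRC2 loss, the ladder bears on genes that read lower there, and a gene that reads higher there by log2 value stays higher on it by construction. Rises from a wildtype value of 0 thus have no check on the ladder, although more genes were listed at 0 in wildtype tumors. The part of the floor in such rises was not tested. Piwil2 and Piwil4 lay above the ladder in nearly all tumors and were read by log2 value. In this reading 5 of the 10 genes had groups that did not overlap, against 7 by log2 value alone and 6 with tumors centred on housekeeping genes. The share over all genes was taken only by log2 value as deposited, so these counts are description.

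**Figure D3:**
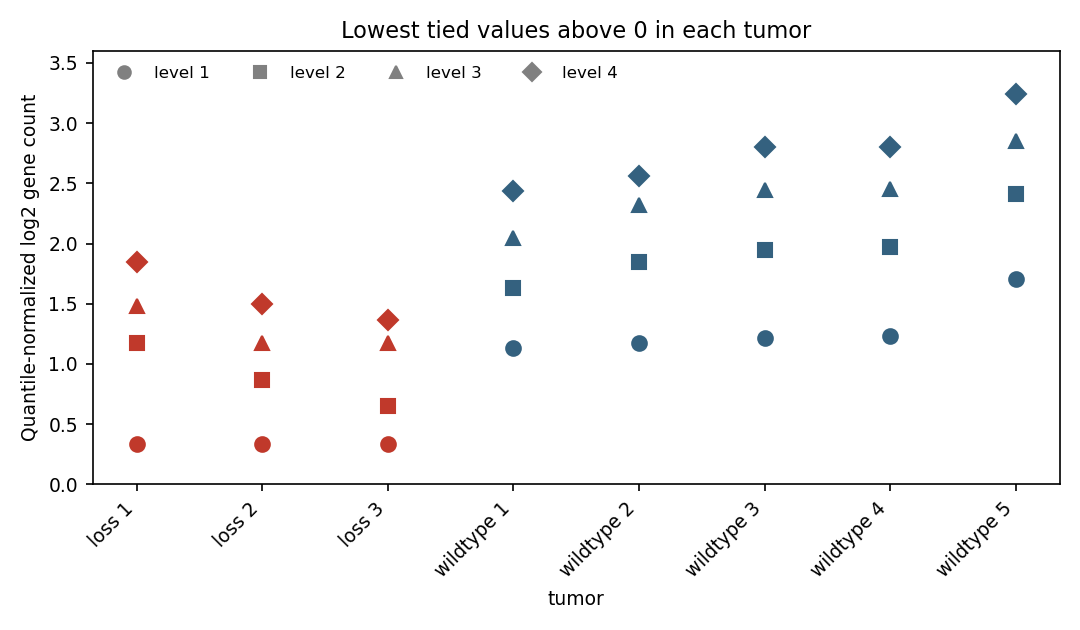
The 4 lowest tied values above 0 in each tumor, each shared by at least 50 genes of that tumor; the vertical axis is the quantile-normalized log2 gene count, with PRC2 loss tumors in red and PRC2 wildtype tumors in blue. Each level lies lower in all PRC2 loss tumors than in any wildtype tumor; level 1 is 0.33 in PRC2 loss tumors and 1.13 to 1.70 in wildtype tumors.

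The wider germline program was read from 6 lists holding 159 other genes, 120 of which were tested. PRC2 loss tumors were higher for 23 genes and lower for 11, while 86 did not pass (limma, Benjamini-Hochberg adjusted p over all 20807 genes). Over all genes 16% were higher and 19.6% lower. The median log2 difference of the 120 genes was 0.17, against -0.12 for all genes. Most of these genes are low: once every gene with a mean under 8.43 was dropped, the calls that were left were 3 germ cell specification genes higher and 1 meiotic gene lower. Centring on housekeeping genes raised the higher counts, to 10 each for the meiotic and specification lists and 8 for the spermatocyte and spermatid list, in a fit that called 34.5% of all genes higher.

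**Figure D4:**
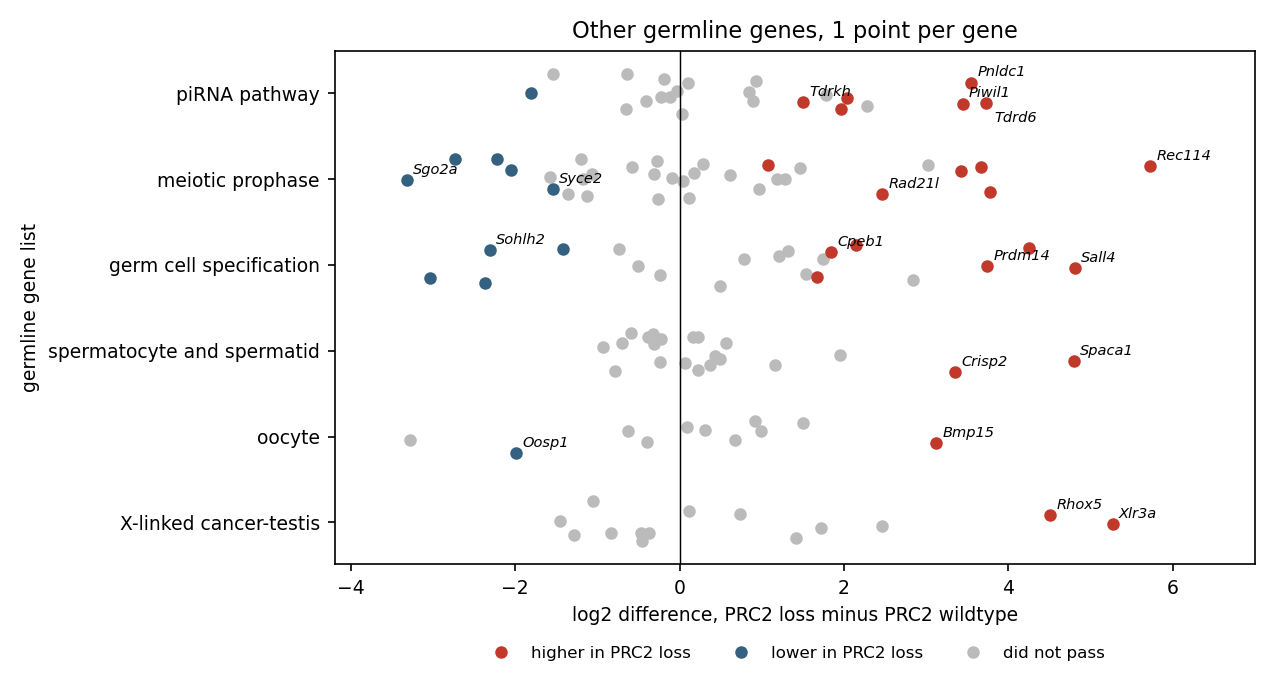
log2 difference between PRC2 loss and PRC2 wildtype (horizontal axis) for 120 other germline genes in 6 lists, with small vertical scatter for legibility; red genes were higher, blue genes lower and grey genes did not pass the limma test. Rec114, at 5.73, has the largest rise and Sgo2a, at -3.32, the largest fall among the genes that passed.

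Of 22 other piRNA pathway genes 6 rose (27.3%, against 16% of all genes) and 1 fell (4.55%, against 19.6%). Piwil1, the mouse PIWI gene of spermatocytes and spermatids, was listed at 0 in all wildtype tumors and stood at 3.51, 3.89 and 2.94 in PRC2 loss (limma adjusted p = 0.000148). Pnldc1, the exonuclease that trims piRNA ends, averaged 8.23 ± 0.59 in the 3 PRC2 loss tumors, against 4.68 ± 0.64 in the 5 wildtype tumors (SD), which is 11.7-fold higher (limma adjusted p = 0.00125). The Tudor protein gene Tdrd6 was 13.2-fold higher (6.22 ± 0.55 in PRC2 loss, against 2.50 ± 0.98 in wildtype, SD over 3 and 5 tumors; limma adjusted p = 0.00311). Tdrkh, the mitochondrial docking protein of PIWI proteins, was 2.82-fold higher (limma adjusted p = 0.00848), a call that was lost without the male tumors (limma adjusted p = 0.0603). Tdrd5 and Tdrd9, also Tudor genes, rose too, and the gene that fell was Dnmt3l, the partner of the germline DNA methyltransferases. These 3 were picked out with values in view. The Tdrd5 call was marginal (limma adjusted p = 0.0466). Its groups overlapped by log2 value, at 4.94 in PRC2 loss tumor 2 and 5.01 in wildtype tumor 5. The Dnmt3l groups overlapped on the ladder of tied levels. Its call was marginal (limma adjusted p = 0.0488), and no piRNA gene was lower with either pseudocount, housekeeping centring, averaging by animal number, sex as a term or no variance trend, or without any 1 of the PRC2 loss tumors.

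Of 32 meiotic prophase genes 6 were higher and 5 lower, shares near the 16% and 19.6% of all genes, with a median log2 difference of -0.03. Rec114, needed for meiotic double-strand breaks, stood at 7.97, 8.53 and 7.88 in PRC2 loss, against 1.63, 3.11, 1.22, 2.80 and 3.24 in wildtype. No wildtype tumor came near a PRC2 loss tumor, and the level was 53.0-fold higher (limma adjusted p = 0.000424). Rad21l, a meiotic cohesin subunit, was listed at 0 in wildtype and stood at 2.45, 3.11 and 1.85 in PRC2 loss (limma adjusted p = 0.000728). Dmc1, the meiotic strand exchange recombinase, Smc1b, a meiotic cohesin subunit, and Tex14, a protein of germ cell bridges, rose as well, by 13.7-fold, 12.7-fold and 10.8-fold, and so did Mei1, a meiotic recombination gene that was at 0 in wildtype and at most 1.18 in PRC2 loss. Mei4, the partner of Rec114 in double-strand break formation, fell and was 6.67-fold lower, with groups apart on the ladder too. Psmc3ip and M1ap fell as well. These 7 are named after their values were seen. Sgo2a, the shugoshin that protects cohesin at centromeres in dividing cells as well, was 9.98-fold lower (limma adjusted p = 0.00136). Syce2, a central element protein of the synaptonemal complex, was 2.92-fold lower (limma adjusted p = 0.00207). Stra8, the retinoic acid target that starts meiosis, was at 0 in all PRC2 loss tumors and at most 1.85 in wildtype, and did not pass (limma adjusted p = 0.052). Stra8 was not among the genes named by rule.

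Of 20 germ cell specification genes 6 rose (30%, against 16% of all genes) and 4 fell (20%, against 19.6%). Prdm14, a regulator of primordial germ cells, was at 0 in all wildtype tumors and stood at 3.11, 3.40 and 4.73 in PRC2 loss (limma adjusted p = 0.00038). Sall4, a zinc finger factor of stem and germ cells, averaged 5.40 ± 0.65 in the 3 PRC2 loss tumors, against 0.60 ± 0.85 in the 5 wildtype tumors (SD) (limma adjusted p = 0.000691). Cpeb1, which controls polyadenylation of stored mRNA in oocytes and in neurons, was 3.58-fold higher (limma adjusted p = 0.00108), and Zbtb16 and Gfra1, which mark spermatogonial stem cells but are also transcribed in somatic tissues, rose too. Sohlh2, a germ cell helix-loop-helix factor, was at 0 in all PRC2 loss tumors and stood at 2.05, 1.85, 2.45, 2.80 and 2.41 in wildtype (limma adjusted p = 0.000854). Dppa3, also called Stella, fell 8.23-fold, and Utf1 was at 0 in all PRC2 loss tumors. Dppa5a rose and Dnd1 fell. Zbtb16, Gfra1, Dppa3, Utf1, Dppa5a and Dnd1 are named after their values were seen.

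Of 21 spermatocyte and spermatid genes 2 rose (9.52%) and none fell by limma, and 0 were lower at an unadjusted p below 0.05. Spaca1, an acrosomal membrane protein gene, was 27.8-fold higher (8.50 ± 0.62 in PRC2 loss, against 3.70 ± 0.61 in wildtype, SD over 3 and 5 tumors; limma adjusted p = 0.000439) and Crisp2, a sperm tail and acrosome protein gene, 10.2-fold higher (limma adjusted p = 0.00823, and 0.0526 with tumors of 1 animal number averaged). Brdt, a testis bromodomain gene, and Calr3 did not pass (limma adjusted p = 0.254 and 0.151). The sperm chromatin genes Prm2 and Tnp2, which were not among the genes named by rule, were at 0 in all PRC2 loss tumors and at most 2.32 in any wildtype tumor. Of 11 oocyte genes 1 rose and 1 fell. The oocyte growth factor gene Bmp15 was 8.72-fold higher (7.49 ± 0.70 in PRC2 loss, against 4.37 ± 1.55 in wildtype, SD over 3 and 5 tumors; limma adjusted p = 0.0254), and the adjusted p was 0.0847 without PRC2 loss tumor 1, 0.09 without tumor 2 and 0.118 without the male tumors. Oosp1 was 3.97-fold lower (limma adjusted p = 0.0315), near the floor, with groups that overlapped on the ladder and a call that was lost without PRC2 loss tumor 2 or 3 or wildtype tumor 1 or 3 (limma adjusted p from 0.0582 to 0.111). Gdf9 and Zar1 did not pass (limma adjusted p = 0.447 and 0.068), and Zar1 passed as lower without wildtype tumor 2 (limma adjusted p = 0.0281). Of 14 X-linked germline and cancer-testis genes 2 rose (14.3%) and none fell by limma. Xlr3a was 38.6-fold higher (limma adjusted p = 0.00114), though its near-identical copies can share reads and make the value uncertain, and the homeobox gene Rhox5 22.8-fold higher (limma adjusted p = 0.00388). At an unadjusted p below 0.05, 1 of the 14 was lower. Xlr3b and Xlr4a did not pass (limma adjusted p = 0.367 and 0.149), and Xlr3b passed as higher without wildtype tumor 1 (limma adjusted p = 0.0163).

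**Figure D5:**
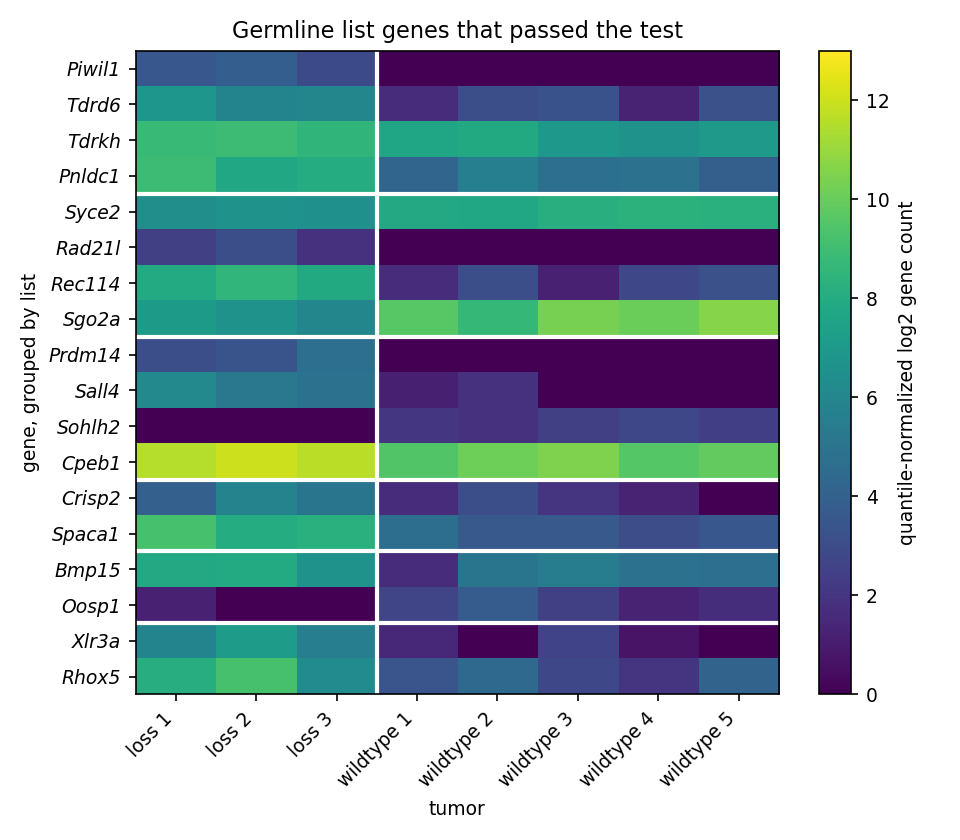
Quantile-normalized log2 gene count (color) of the 18 germline list genes named by rule that passed the test, in the 3 PRC2 loss tumors (left of the white line) and the 5 PRC2 wildtype tumors; white horizontal lines part the lists. Piwil1, Rad21l and Prdm14 are at 0 in every wildtype tumor, and Sohlh2 is at 0 in every PRC2 loss tumor.

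Of the 11 genes called lower in these lists, 6 could be placed on the ladder and 4 of them, Mei4, Dppa3, Sohlh2 and Utf1, had groups that did not overlap there. An E-box stood in 5 of 17 windows of the higher genes, those of Piwil1, Tdrd9, Rec114, Cpeb1 and Crisp2, in 0 of 9 windows of the lower genes and in 12 of 67 windows of genes that did not pass. Over all tested genes the share was 9.05% among the higher, 10.3% among the lower and 8.65% among those that did not pass. The 10 genes did not split this way. Piwil4 and Tex101, higher in PRC2 loss, had no E-box. Of the lower genes, Ddx4 and Slc25a31 had an E-box and Dazl had none. Hormad1, Sycp3 and Mael had an E-box and groups that overlapped. A link between E-boxes and direction was not tested.

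The genes known to silence the germline program were checked as a list of 25 members of PRC1.6 and of the DNA methylation and H3 lysine 9 methylation machinery. None rose and 8 fell (32%, against 19.6% of all genes), though with housekeeping centring 5 were higher and 3 lower. Most repressors are not low genes. Once genes with a mean under 8.43 were dropped, 8 repressors were lower, as were 24.3% of all genes left. The median log2 difference of the 25 repressors was -0.28. Of the 15 housekeeping genes 9 were lower (60%), with a median of -0.47. At an unadjusted limma p below 0.05, 0 of the 25 repressors were higher and 10 lower, and of the housekeeping genes 1 was higher and 10 lower. Of all 20807 genes, 9578 had such a p in either direction. Uhrf1, which brings the maintenance methyltransferase to replicated DNA, was 11.8-fold lower (7.80 ± 0.60 in PRC2 loss, against 11.36 ± 0.39 in wildtype, SD over 3 and 5 tumors; limma adjusted p = 0.000217). That methyltransferase, Dnmt1, was 2.03-fold lower (10.99 ± 0.20 in PRC2 loss, against 12.01 ± 0.33 in wildtype, SD over 3 and 5 tumors; limma adjusted p = 0.00561), and its adjusted p was 0.0528 without the male tumors. Pcgf6, the subunit that defines PRC1.6, was 2.87-fold lower (7.72 ± 0.33 in PRC2 loss, against 9.24 ± 0.34 in wildtype, SD over 3 and 5 tumors; limma adjusted p = 0.00264). Tfdp1, an E2F partner, was 2.04-fold lower (limma adjusted p = 0.0122), a call that did not hold with values centred on 15 housekeeping genes (limma adjusted p = 0.159), when tumors of 1 animal number were averaged (0.0562) and without PRC2 loss tumor 3 (0.0502). Mga, Max, E2f6, L3mbtl2, Setdb1 and Dnmt3b did not pass. Housekeeping centring put the median of all genes at a log2 difference of 0.42, with 7180 genes higher and 1694 lower, and the 3 repressors lower in that fit were Uhrf1, Dnmt1 and Pcgf6.

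Some markers of gonadal cells other than germ cells were higher in PRC2 loss. Of 7 Sertoli cell markers tested 4 rose (57.1%, against 16% of all genes), Rhox5, which the X-linked list also holds, Inha, Cldn11 and Gata4, and the list mean ran from 5.88 to 6.70 in PRC2 loss and from 3.31 to 3.85 in wildtype, while Dmrt1, a transcription factor that maintains Sertoli cell identity, was at most 0.65 in any tumor. Amh (log2 difference -0.76) and Tsx (-0.99) did not pass, and Tsx stood between 4.18 and 4.72 in PRC2 loss, against 4.80 to 6.70 in wildtype. Of 7 Leydig cell markers 3 rose (42.9%), Cyp11a1, Lhcgr and Nr5a1. The Nr5a1 groups overlapped, at 1.85 in PRC2 loss tumor 3 and 2.05 in wildtype tumor 1. Leydig list means ran from 3.55 to 4.08 in PRC2 loss and from 1.77 to 2.62 in wildtype. The steroid enzyme gene Hsd3b6 was at most 0.33 in any tumor. Star, the cholesterol transporter of steroid synthesis, had a log2 difference of -0.69 and did not pass. Many of these markers are transcribed in other tissues too, and their part in the germline gene values was not tested.

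Genes with the most similar profile were taken, for each of the 10, as the 3 with the highest Pearson r over the 8 tumors among 11273 annotated genes of at least median level in one group. These r values are descriptions over tumors that also differ by group. Each is among the highest of 11273 over only 8 tumors, and how high r runs by chance under such a choice was not tested. Nxf3 ran closest to Barx1, a homeobox gene (r = 1), to Etnppl (r = 0.997), both also at 0 in all wildtype tumors, and to Tal1 (r = 0.996). Piwil4 ran closest to Fa2h, a myelin lipid hydroxylase gene (r = 0.991), Mapk8ip1 (r = 0.989) and Igf2 (r = 0.989). Piwil2 ran closest to Lmo7 (r = 0.973), Lamc3, a laminin chain gene (r = 0.968), and Col26a1 (r = 0.959). Tex101 ran closest to Slx1b (r = 0.992), Lrp3 (r = 0.991) and Deaf1 (r = 0.981). Among the genes lower in PRC2 loss, Ddx4 ran closest to the translation factor gene Eif3e (r = 0.983), Rpl30 (r = 0.981) and Chchd1 (r = 0.978). Dazl ran closest to Tmem132a, Has2 and Ndufab1 (r = 0.986 for each), and Slc25a31 to Zfp933 (r = 0.99), Ccl9 (r = 0.984) and Dpp7 (r = 0.983). Sycp3 reached r = 0.926 with its closest gene, Tspan12, followed by Adipor2 (r = 0.909) and Pnpla2 (r = 0.908). For Hormad1 (Mcfd2, Ugcg and Phtf2, r from 0.951 to 0.982) and Mael (Etv3, Ypel5 and Prkcd, r from 0.937 to 0.96) the profile rests on values at the floor. Dazl and Slc25a31 were low too, with groups that overlapped by tied level.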

How the data were processed

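Per the labels' protocols, poly-A libraries were sequenced from Trizol RNA of 8 mouse tumors. Trim Galore, STAR 2.6, Partek 7.0 and mm10 are named in the submitters' processing notes. The authors deposited log2 values of quantile-normalized gene counts; the offset of the logarithm, strand use and the handling of shared reads are not stated in those sources, and raw counts and depth are unknown. A value of 0 is given as listed at 0, and no fold is given against a group all at 0.

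The 10 genes, the other gene lists and the tests were chosen with earlier results of these data known. PRC2 loss (n = 3) was compared with PRC2 wildtype (n = 5) by limma 3.58.1 in R 4.3.3 with a variance trend, and p-values were adjusted by Benjamini-Hochberg over 20807 genes, leaving out 136 constant ones, at a threshold of 0.05. The procedure was tested on simulated data, with shifts only in genes at or above the median gene's mean and with no tied values. It therefore does not show how well shifts are recovered in low genes such as the 10. Folds are 2 to the power of the difference in deposited log2 values. For low genes they depend on the scale, and falls in PRC2 loss can be overstated, since tied low values lie lower in PRC2 loss tumors. More genes were listed at 0 in wildtype tumors, so rises from a wildtype value of 0 may be overstated too, which was not tested. From each list up to 4 genes are named: those past the threshold by smallest p, then those of highest mean. Other list genes in the text, such as Stra8, Prm2, Tnp2 and Nxf2, were picked outside this rule. Tied levels were added after seeing the data. Alternatives were pseudocounts, a filter on low genes, housekeeping centring, sex, array weights, no trend, a replicate block, averaging by animal number and leaving out tumors. Nothing in the labels shows that every tumor came from a separate mouse, so p-values measure the spread between these tumors.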

Additional observations from a re-analysis of the deposited data

Results flagged for a closer look

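Of 38 genes considered, those at 0 in all wildtype tumors were passed over. A single wildtype tumor stood apart from the other 4 in 3 cases, at a critical gap of 0.71 of the group's range. Chance flags about 1 group in 20 where values are not tied. Mael was at 1.18 in wildtype tumor 2, with the other wildtype tumors at 0, a pattern that is flagged whatever the size of the single value. Bmp15 was at 1.63 in wildtype tumor 1, with the others between 4.75 and 5.48. Xlr4a was at 7.46 in wildtype tumor 2, with the others between 5.43 and 5.98.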

How the results depend on the processing

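The deposited values hold no depth, so low genes limit what can be said. The comparison called 7424 genes; 4248 were called with low genes left out, a filter that removes all 10 genes, 4226 with tumors of 1 animal number averaged, 4623 without the male tumors and 1903 with the replicate block. The numbers do not pair the tumors (same-number correlations of deviations -0.155, 0.0945 and -0.0482). Counts are given below as higher or lower in PRC2 loss. With low genes left out, piRNA genes gave 0 higher and 0 lower, meiotic genes 0 higher and 1 lower, germ cell specification genes 3 higher and 0 lower, spermatid genes 0 higher, oocyte genes 0 higher and 0 lower, and X-linked genes 0 higher. Housekeeping centring gave 10 meiotic, 10 specification, 8 spermatid, 4 oocyte, 4 X-linked and 5 repressor genes higher, and 0 piRNA, 0 oocyte and 3 repressor genes lower. Averaging by animal number gave 0 piRNA, 3 meiotic, 2 specification, 0 oocyte and 4 repressor genes lower and 1 spermatid gene higher. There 9 of the 10 genes did not overlap, but fewer values per group make separation easier. The replicate block gave 1 piRNA, 3 meiotic, 0 oocyte and 1 X-linked genes higher, and 0 piRNA, 0 meiotic, 2 specification, 0 oocyte, 1 X-linked and 1 repressor genes lower. Without male tumors 0 piRNA, 3 meiotic, 2 specification and 3 repressor genes were lower. The piRNA count lower was 0 with either pseudocount, with sex as a term and with no variance trend; pseudocount 16 gave 0 oocyte genes lower, sex as a term 2 oocyte genes higher, no trend 1 spermatid and 5 repressor genes lower, and array weights 10 meiotic and 3 oocyte genes higher. Without wildtype tumors 1 and 2, 1 X-linked gene was lower. By tied levels 5 of the 10 genes did not overlap. The share of all genes without overlap (38.3% in either direction) was taken only in the main setting. Nothing is read from the counts of the 10 genes in the other settings. The causes were not tested.

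Leaving out 1 tumor in turn gave 5528 to 7697 genes called and 7 to 8 of the 10 genes without overlap, a count with no all-gene share beside it. Higher and lower counts ranged over 5 to 7 and 0 to 2 for piRNA genes, 6 to 7 and 3 to 6 for meiotic genes, 5 to 7 and 2 to 5 for specification genes, 0 to 2 and 0 to 2 for oocyte genes, 2 to 3 and 0 to 1 for X-linked genes, and 0 to 1 and 4 to 7 for repressors. The piRNA count lower was 0 without any 1 of the PRC2 loss tumors or of wildtype tumors 1, 2 and 4, and 2 without wildtype tumor 5. The meiotic count lower was 3 without PRC2 loss tumor 1, and the specification count lower was 2 without PRC2 loss tumor 2 or 3. The oocyte count higher was 0 without PRC2 loss tumor 2 and 2 without tumor 3, and its count lower was 0 without PRC2 loss tumor 2 or 3 or wildtype tumor 1 or 3, and 2 without wildtype tumor 2. Repressors gave 4 lower and 1 higher without PRC2 loss tumor 3, and 5 lower without PRC2 loss tumor 1 or 2 or wildtype tumor 4. Without wildtype tumor 1 or 5, 1 X-linked gene was lower. Gdf9 reversed with housekeeping centring, at a log2 difference of 0.15, against -0.39.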

Other observations

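Several germline genes differed widely among the PRC2 loss tumors; they are named after their values were seen and did not pass the test between groups. Tdrd1, a Tudor gene of the piRNA pathway, stood at 6.21, 7.47 and 0 in PRC2 loss tumors 1 to 3, against 3.55, 0, 5.36, 2.45 and 0 in wildtype tumors 1 to 5. Rnf17, another Tudor gene, stood at 5.61, 8.70 and 1.85 in PRC2 loss. Meioc, which keeps germ cells in meiotic prophase, stood at 0, 5.30 and 5.22 in PRC2 loss, against 0, 1.18, 0, 1.23 and 0 in wildtype. Tex13b stood at 5.81, 0.33 and 1.97 in PRC2 loss, against 0, 0, 1.22, 0 and 0 in wildtype. PRC2 loss tumors 2 and 3, which share an animal number, were thus alike for Meioc and far apart for Tdrd1 and Rnf17.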
